A study of Mus musculus with 16 samples.

Results

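The genes of fast skeletal muscle fibres were followed in mouse skin wounds. They were 10 genes, Tnnc2, Tnni2, Tnnt3, Acta1, Myh1, Myh2, Myh4, Mylpf, Ckm and Actn3, out of 20832 genes named on the array. Every probe whose accession led to one of these symbols in the RefSeq table was taken, which gave 11 probes. Tnnt3 had 2 probes and each of the other genes had 1.

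Each wound was bisected together with the intact skin around it, and RNA came from a homogenate of the part not kept for histology. The mice were female and of 2 strains, so that the genotype cannot be told apart from the strain. The WT group held C57BL/6J mice of 10 to 12 weeks, and the other 3 groups held 10-week-old C57BLKS/J mice homozygous for the Lepr db mutation (db/db), which lack the long, signalling form of the leptin receptor. Estradiol benzoate in sesame oil was put on the wounds of the db/db + estrogen group at 0.75 μg/g/day, only the oil was put on those of the db/db + vehicle group, and the WT and db/db groups were left untreated. Each group had 2 arrays labelled day 7 and 2 labelled day 14, which the labels number as replicates, and the 16 arrays were read in 1 colour. Each mouse had 2 wounds, and the sample titles do not say whether the 2 arrays come from different mice. Days are given as labelled. For genes that the study prints, the fold changes of one day were met on the arrays that carry the other day as their label, and the files do not show which is right. The comparisons ask whether diabetes, topical estrogen or its oil altered the wound at each time.

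Skeletal muscle fibres contract by the sliding of myosin along actin, and calcium starts the contraction by binding to troponin on the actin filament. Fast fibres use their own versions of myosin and troponin, and slow fibres use others. In mouse skin the muscle is a thin sheet below the fat, the panniculus carnosus, and the wounds were cut through the skin into this layer.

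All 11 probes were well above background on all 16 arrays, and no spot of any array was saturated. Over the arrays, 70.1% to 79.0% of the probes were well above background and the signal at the 75th percentile was between 1091 and 2548. A level is given here as the log2 of the processed signal minus the log2 of the 75th percentile of its array, so that 1 unit is a factor of 2. Probes differ in how brightly they bind, so no gene is read as higher or lower than another from its level, and where the distance between a pair of probes is given, only its movement between arrays is read. Of the 6 epidermal genes listed, 5 were on the array, as were all 5 fibroblast genes, and all of these were well above background on all 16 arrays. The 5 heart genes listed were so too, so passing this threshold does not identify the tissue. In RNA from a homogenate of wound and skin, fewer muscle fibres and less RNA per fibre cannot be told apart.

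Among the members, Myh2, Myh1 and Myh4 encode the fast myosin heavy chains of type IIa, IIx and IIb fibres, and they lie next to each other on the same chromosome. The 250 bases before the start of each gene are shown because the levels of Myh4 departed from those of Myh1 and Myh2 in the wounds. The sequences are from RefSeq on build GRCm38.p6, plus strand, 5′ to 3′. Capitals mark an E-box, which reads CANNTG, a MEF2 site, a CArG box or the letters TATAAA. E-boxes are bound by the myogenic factors of the MyoD family, and CArG boxes by serum response factor.
Myh2, chr11:67170777-67171026: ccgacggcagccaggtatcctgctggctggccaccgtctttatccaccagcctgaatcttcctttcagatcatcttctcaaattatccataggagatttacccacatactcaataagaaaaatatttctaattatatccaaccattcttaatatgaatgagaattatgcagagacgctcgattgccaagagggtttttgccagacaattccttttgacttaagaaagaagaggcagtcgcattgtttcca
Myh1, chr11:67199852-67200101: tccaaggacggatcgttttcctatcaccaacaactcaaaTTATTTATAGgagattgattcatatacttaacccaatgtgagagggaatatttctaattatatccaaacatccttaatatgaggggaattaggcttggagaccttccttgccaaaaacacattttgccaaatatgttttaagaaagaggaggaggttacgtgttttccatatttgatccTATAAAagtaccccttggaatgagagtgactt
Myh4, chr11:67237562-67237811: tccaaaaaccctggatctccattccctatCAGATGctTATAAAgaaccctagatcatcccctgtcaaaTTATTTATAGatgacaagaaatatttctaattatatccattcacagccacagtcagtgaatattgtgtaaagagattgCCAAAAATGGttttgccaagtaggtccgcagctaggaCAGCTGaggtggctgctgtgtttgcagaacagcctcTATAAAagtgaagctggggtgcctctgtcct

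The starts of Myh2 and Myh1 lay 29075 bases apart and those of Myh1 and Myh4 37710 bases apart. All 3 sequences held the same run of 20 bases, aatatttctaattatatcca, which began 130 bases before the start in Myh2, 165 in Myh1 and 163 in Myh4. No other gene in the table of promoters held this run within its 250 upstream bases on either strand. Myh1 and Myh4 each held a MEF2 site, which 2.92% of the 32851 promoters of the same length held, and its letters on the other strand include TATAAA. Myh4 held 2 E-boxes and a CArG box, and Myh1 and Myh2 held neither. Both strands were searched in the 7 members with an entry in the table, namely Tnnc2, Acta1, Myh1, Myh2, Myh4, Mylpf and Ckm. An E-box was found in 5 of the 7, against 66.2% of all promoters. The E-box CAGCTG was found in 4 of the 7, Acta1, Ckm, Myh4 and Mylpf, against 13% of all promoters. A CArG box was found in Acta1 and Myh4 alone among the 7, against 1.47% of all promoters, and TATAAA in 3 of the 7, against 12.4%. A match of letters is a description of the sequence, and it was not tested whether any factor was bound there.

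The genes of the thin filament are described first. Tnnc2, Tnni2 and Tnnt3 encode the calcium-binding, the inhibitory and the tropomyosin-binding subunit of fast troponin. Acta1 encodes skeletal muscle actin. Tnnc2 stood at 7.23 and 7.49 in WT, 7.12 and 6.36 in db/db, 7.87 and 7.59 in db/db + estrogen and 7.29 and 6.13 in db/db + vehicle wounds for labelled day 7. On the arrays labelled day 14, its levels were 6.69 and 7.86, 7.28 and 6.64, 5.20 and 7.85, and 5.88 and 6.45 in the same order of groups. The db/db + estrogen group of labelled day 14 thus held the lowest level of Tnnc2 on any array and one of the highest. Tnni2 followed it closely, with a correlation of 0.99 over the 16 arrays, and ran from 5.16 to 7.79. Tnnt3 ran from 3.57 to 6.92, with both ends in the db/db + estrogen group of labelled day 14. The 2 probes of Tnnt3 moved together with a correlation of 0.99 over the 16 arrays, and the distance between them stayed between 0.23 and 0.75 on the log2 scale. Acta1 stood at 7.39 and 7.37 in the db/db + estrogen group for labelled day 7 and at 4.52 and 7.25 in that of labelled day 14.

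Of the thick filament, Myh1 stood at 6.51 and 6.91 in the WT group, 5.57 and 5.02 in the db/db group, 6.54 and 6.62 in the db/db + estrogen group and 6.12 and 5.08 in the db/db + vehicle group for labelled day 7. On the arrays labelled day 14, its levels were 5.70 and 6.94, 6.36 and 5.49, 3.71 and 7.05, and 4.76 and 5.43 in the same order. Both db/db arrays of labelled day 7 were below both WT arrays, and for labelled day 14 the ranges of these groups overlapped. Myh2 stood at 5.53 and 6.25, 4.73 and 4.73, 4.57 and 5.89, and 4.79 and 4.15 for labelled day 7. With the label of day 14 it stood at 4.79 and 6.32, 5.78 and 4.52, 3.58 and 6.12, and 4.29 and 4.42. The db/db arrays of labelled day 7 gave the closest pair of levels of Myh2, and the WT arrays of the same label were both above them. Mylpf, the regulatory light chain of fast myosin, ran from -3.46 to 0.14, and the db/db + estrogen group of labelled day 14 held both ends.

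Myh4 had a pattern of its own. For labelled day 7 it stood at 3.83 and 4.57 in the WT group, 6.84 and 5.27 in the db/db group, 3.65 and 2.03 in the db/db + estrogen group and 6.88 and 2.02 in the db/db + vehicle group. The arrays labelled day 14 held it at 5.60 and 6.61, 6.69 and 6.23, 3.22 and 7.16, and 3.26 and 3.20 in the same order. Its levels were therefore low in the WT and db/db + estrogen groups of labelled day 7, where most other members were high, and high on all 4 db/db arrays. The arrays of the db/db + vehicle group of labelled day 7 differed 28.9-fold in Myh4, the largest gap that any member showed between replicates there.

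Ckm encodes the creatine kinase of muscle, which passes phosphate between creatine and ATP, and Actn3 encodes the alpha-actinin of fast fibres at the Z-disc. Ckm stood at 3.48 and 3.85 in the WT group, 3.77 and 2.34 in the db/db group, 4.22 and 4.30 in the db/db + estrogen group and 3.91 and 1.68 in the db/db + vehicle group for labelled day 7. On the arrays labelled day 14 it stood at 2.59 and 3.82, 4.30 and 3.53, -0.23 and 4.80, and 1.25 and 1.77. The lowest and the highest level of Ckm were both in the db/db + estrogen group of labelled day 14 and differed 32.7-fold. Actn3 stood at 3.60 and 3.29, 4.52 and 3.15, 3.40 and 3.84, and 4.47 and 1.54 for labelled day 7. The levels labelled day 14 were 3.47 and 4.71, 4.83 and 4.14, 1.55 and 5.50, and 2.11 and 2.04. Actn3 was thus low on both db/db + vehicle arrays of labelled day 14 and high on both db/db arrays.

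**Figure D1:**
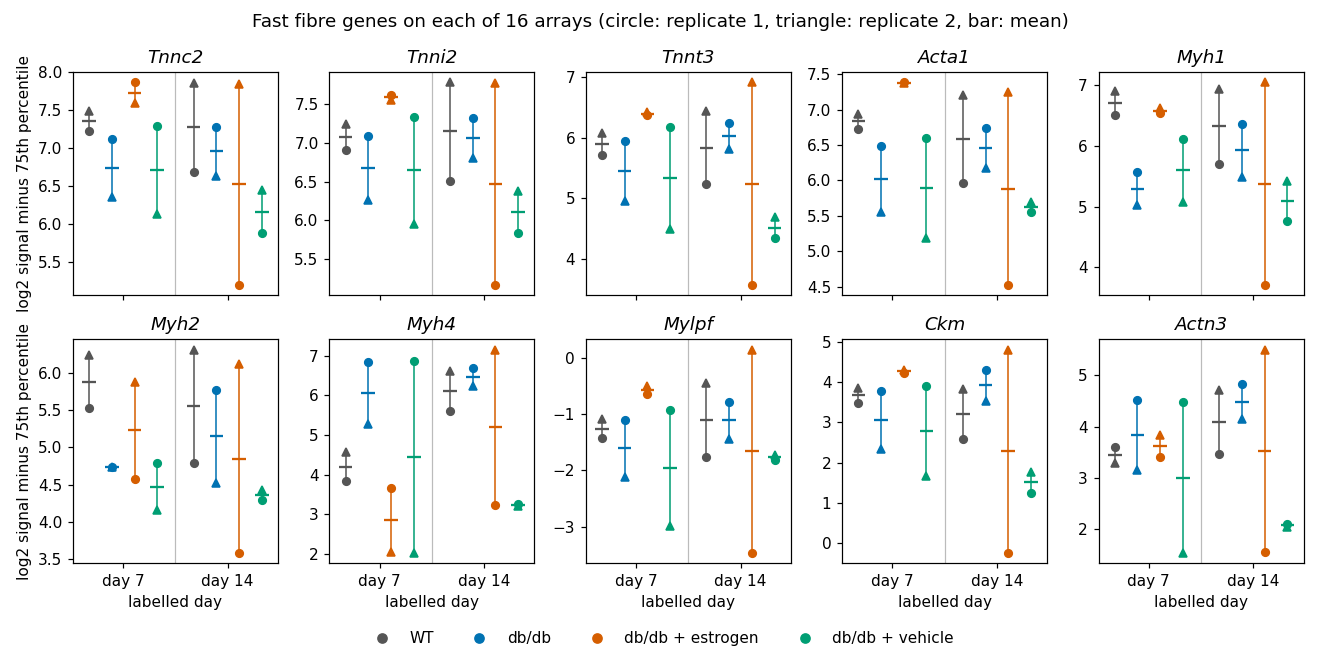
Log2 level relative to the 75th percentile of the array (vertical axes, which differ between panels) of the 10 fast fibre genes on the 2 arrays of each group, with the bar at the mean, and with the colours of the groups in the key. The pair of db/db + estrogen arrays of labelled day 14 spans the widest gap for 9 of the 10 genes.

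The 2 arrays of a group lay far apart for these genes. The pooled replicate SD of the members on the log2 scale ran from 0.84 for Tnnc2 to 1.70 for Myh4, with a median of 1.01. Over the 25909 probes that were well above background on all 16 arrays, the median was 0.22, and 97.3% of them had a smaller SD than any member. The mean of the 10 members was 2.68 on replicate 1 and 6.06 on replicate 2 of the db/db + estrogen group of labelled day 14, the lowest and the highest of the 16 arrays. All 10 members were higher on replicate 2, by 2.54 for Myh2 to 5.03 for Ckm, whereas the median gap over the 25909 probes was -0.058. In the db/db + vehicle group of labelled day 7, the mean was 5.26 on replicate 1 and 3.33 on replicate 2, and all 10 members were lower on replicate 2. In the WT group of labelled day 14, all 10 were higher on replicate 2, by 1.01 for Myh4 to 1.52 for Myh2. All 10 were lower on replicate 2 in the db/db group of either labelled day, with a median gap of -0.96 and of -0.65. The closest pairs were in the WT and db/db + estrogen groups of labelled day 7 and the db/db + vehicle group of labelled day 14, with median gaps of 0.36, 0.07 and 0.24. Within the db/db + estrogen pair of labelled day 7, Myh4 was 1.62 lower and Myh2 1.31 higher on replicate 2.

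**Figure D2:**
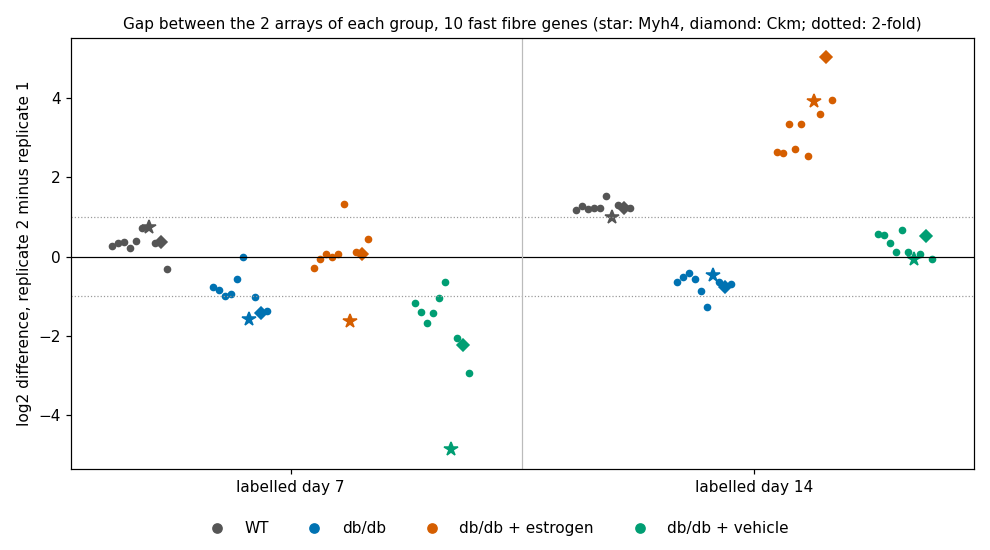
Log2 difference between replicate 2 and replicate 1 (vertical axis) for each of the 10 fast fibre genes in each of the 8 groups, with dotted lines at a 2-fold gap, a star for Myh4 and a diamond for Ckm. All 10 genes lie between 2.54 and 5.03 for the db/db + estrogen group of labelled day 14.

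For all 10 members, the largest gap between replicates exceeded the whole range of the 8 group means. The db/db + vehicle group of labelled day 14 had the lowest mean for 8 of the 10 members, the exceptions being Mylpf, lowest in the db/db + vehicle group of labelled day 7, and Myh4, lowest in the db/db + estrogen group of labelled day 7. The db/db + estrogen group of labelled day 7 had the highest mean for 6 members, the WT group of labelled day 7 for Myh1 and Myh2, and the db/db group of labelled day 14 for Myh4 and Actn3. In the order of the 8 group means, no step between neighbouring groups reached the pooled replicate SD for any of the 10 members. The largest such step was 0.97 for Myh4, whose SD was 1.70.

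The members moved together from array to array. Among the 9 members without Myh4, the 36 pairwise Pearson correlations over the 16 arrays ran from 0.71 to 0.99, with a median of 0.92. The lowest was between Myh2 and Actn3. Myh4 had correlations of 0.35 to 0.54 with 8 of the others and 0.81 with Actn3. These correlations describe arrays that share groups, slides and scaling, and they carry no test.

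The 3 fast myosins did not keep step. Over the 16 arrays, the distance between the Myh4 and Myh1 signals ran from -4.59 on replicate 2 of the db/db + estrogen group of labelled day 7 to 1.27 on replicate 1 of the db/db group of labelled day 7, a span of 5.86 on the log2 scale. The distance between the Myh1 and Myh2 signals spanned 1.83. The distance of Myh4 to Myh1 was 0.25 to 1.27 on the 4 arrays of the db/db group, and it was -2.68 and -2.33 on the WT arrays of labelled day 7.

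The slow myosin Myh7 was set beside Myh4 to see which arrays carried both. Myh7, the heavy chain of slow fibres, stood above 0 on 6 arrays, at 2.26 to 5.84, and at -4.73 to -1.39 on the other 10. These 6 were the 4 db/db arrays, replicate 1 of the db/db + vehicle group of labelled day 7 and replicate 2 of the db/db + estrogen group of labelled day 14. Myh4 ranged from 5.27 to 7.16 on these 6 arrays and from 2.02 to 6.61 on the other 10. The ranges overlapped through the WT arrays of labelled day 14 alone, where Myh4 stood at 5.60 and 6.61 and Myh7 at -4.73 and -3.76.

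**Figure D3:**
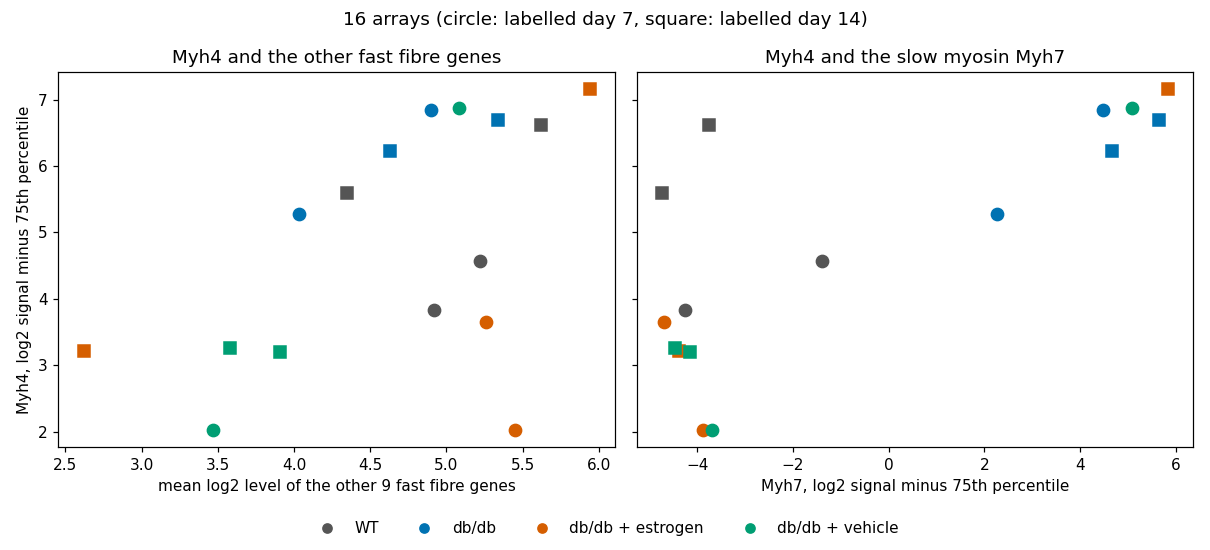
Log2 level of Myh4 on each of the 16 arrays (vertical axis) against the mean log2 level of the other 9 fast fibre genes (left) and against the log2 level of the slow myosin Myh7 (right), with colours for the groups. The WT and db/db + estrogen arrays of labelled day 7 have Myh4 at 2.03 to 4.57 while the mean of the other 9 genes is 4.92 to 5.45, and the 6 arrays with Myh7 above 0 all have Myh4 at 5.27 or higher.

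Differences between groups were tested with limma on all probes that passed the filter on background, and a gene was called where the unadjusted two-sided p was below 0.05 and the fold change above 2. In none of the 8 comparisons was any of the 10 members called, and none had an unadjusted p below 0.05. With 2 arrays against 2, an exact permutation test cannot go below a p of 0.333. The 95% intervals show how large a difference these arrays leave possible.

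Between the db/db and WT groups, no difference of a member passed the test on either labelled day. For labelled day 7, 0 of the 10 members were called, where 14.2% of all probes tested were. The log2 difference was negative for 8 members and positive for Myh4 and Actn3, with a median of -0.53, against -0.048 over all probes. Myh1 had a difference of -1.41 (95% interval -3.37 to 0.55, limma's adjusted p = 0.31) and Myh2 one of -1.16. Myh4 had a difference of 1.85 the other way (interval -1.51 to 5.22, adjusted p = 0.44). The arrays of the groups did not overlap for 5 of the 10 members, against 58.2% of all probes. The replicates of this label lay on separate slides, and within them the median of the members was 0.21 on one slide and -1.13 on the other. Of the 10 members, 0 were called for labelled day 14, against 18.1% of the probes, and the differences ran from -0.40 for Myh2 to 0.70 for Ckm. The arrays overlapped for all 10 members, while 65.8% of the probes did not overlap. The db/db and WT arrays of labelled day 14 lay on separate slides, so no difference within a slide can be had. With slide as a fixed block, Ckm was called there with a difference of 3.48, against 0.70 without the block. Neither of these groups was split between slides, so the slide term rests on the treated pairs that were. Between the replicates of those pairs, Ckm differed by 5.03 with estrogen and by 0.52 with the oil alone. How many of all probes this block called is not given, so the call is not read as a difference between db/db and WT wounds. The direction rested on single arrays, since all 10 differences were above 0 without replicate 2 of the WT group (median 0.60) and without replicate 2 of the db/db group (median 0.28), and 9 of 10 were below 0 without replicate 1 of the WT group (median -0.69), as were 7 of 10 without replicate 1 of the db/db group (median -0.34).

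For db/db + estrogen vs db/db, the means of most members were higher with estrogen for labelled day 7 and those of all members lower for labelled day 14, within the error. For labelled day 7, 0 of 10 members were called, against 10% of the probes, with 8 differences above 0 and a median of 0.97. Acta1 differed by 1.36 (95% interval -0.39 to 3.10, limma's adjusted p = 0.37) and Myh1 by 1.28. Myh4 differed by -3.22, a 9.30-fold lower mean with estrogen (interval -6.59 to 0.15, unadjusted p = 0.059, adjusted p = 0.26). The difference of Myh4 was -3.19 on one slide and -3.24 on the other, and with slide or replicate number as a block, or with normexp background correction, its unadjusted p went below 0.05. The arrays did not overlap for 8 of the 10 members, against 53.5% of the probes. For labelled day 14, 0 of 10 were called, against 4.01% of the probes. All 10 differences were below 0, with a median of -0.58 and the lowest for Ckm at -1.62 (interval -4.54 to 1.29, adjusted p = 0.77). The arrays overlapped for all 10, while 44.7% of the probes did not overlap. On the slide that held both db/db arrays and only replicate 1 of the db/db + estrogen group, the median difference was -2.28. With slide as a fixed block Ckm was called lower at -3.01. The slide term rests on this same db/db + estrogen pair, whose arrays differed in Ckm by 5.03, and on the db/db + vehicle pair. For this block too, the share of all probes called is not given.

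For db/db + vehicle vs db/db, the means of all members were lower with the oil alone for labelled day 14, within the error. For labelled day 7, 0 of 10 were called, against 4.92% of the probes, the median difference was -0.19, and all 10 members overlapped, while 42.2% of the probes did not. The median within a slide was 0.15 on one and -0.52 on the other. With the label of day 14, 0 of 10 were called, against 7.67% of the probes. All 10 differences were below 0 with a median of -0.90, and the arrays did not overlap for any of the 10, against 65.7% of the probes. Myh4 differed by -3.23 (95% interval -6.59 to 0.13, unadjusted p = 0.058, limma's adjusted p = 0.28). It was called there with normexp background correction, with quantile normalization and with the replicate number as a block. Ckm and Actn3 each differed by -2.41, with unadjusted p of 0.097 and 0.07. On the slide that held both db/db arrays and 1 db/db + vehicle array, the median difference was -1.20, and with slide as a fixed block 7 members were called lower. The slide term rests here as well on the db/db + estrogen pair, whose arrays disagreed, and on the db/db + vehicle pair. The share of all probes called with this block is not given.

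For db/db + estrogen vs db/db + vehicle, 0 of 10 members were called for labelled day 7, against 9.08% of the probes. There 9 differences were above 0, with a median of 1.00, and Acta1 had the lowest p, with a difference of 1.48 (95% interval -0.26 to 3.22, unadjusted p = 0.088, limma's adjusted p = 0.30). Myh4 differed by -1.61 (interval -4.98 to 1.76). The arrays did not overlap for 7 of the 10 members, against 58.8% of the probes. The median within a slide was 0.29 on one and 1.83 on the other, and the second of these held the db/db + vehicle array with the low levels. On the arrays labelled day 14, 0 of 10 were called, against 1.03% of the probes, the median difference was 0.42, and all 10 members overlapped, while 40.4% of the probes did not. The median difference was -0.74 on one slide, with all 10 members lower with estrogen, and 1.78 on the other, with all 10 higher.

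**Figure D4:**
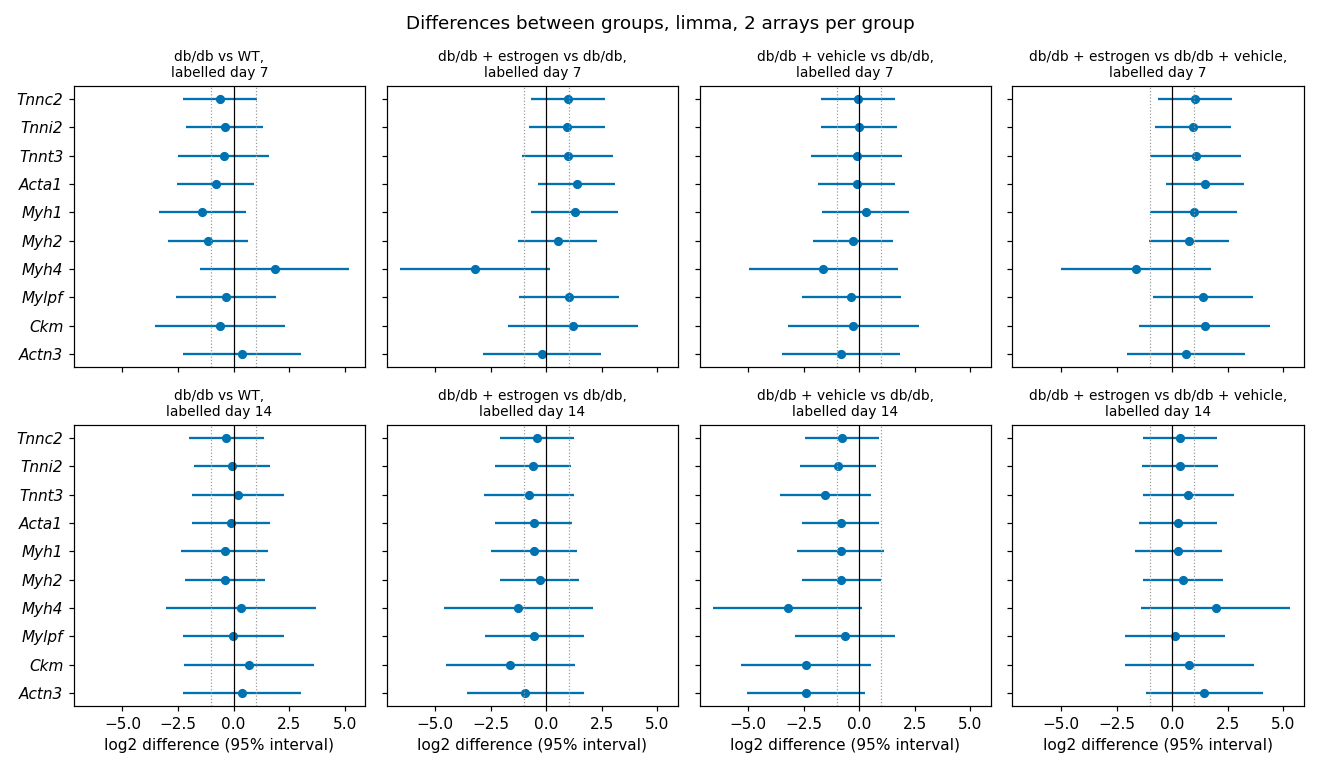
Log2 difference between groups (horizontal axes) with its 95% interval from limma for the 10 fast fibre genes in the 8 comparisons of 2 arrays with 2, with dotted lines at a 2-fold difference. Every interval includes 0, and those of Myh4 are the widest, as in -6.59 to 0.15 for db/db + estrogen vs db/db for labelled day 7.

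The db/db + estrogen group of labelled day 14 rested on 2 arrays that disagreed. Without its replicate 2, all 10 log2 differences from the db/db group were below 0, with a median of -2.28. Without its replicate 1, all 10 were above 0, with a median of 0.89. Against the db/db + vehicle group, all 10 differences were above 0 without replicate 1, from 1.63 to 3.93. They were all below 0 without replicate 2, with a median of -0.96. In such fits the lone array of the group is assumed to vary like the arrays of the other groups. Its replicates 1 and 2 had a 75th percentile of 2034 and 2290 and 73.3% and 72.6% of their probes well above background.

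**Figure D5:**
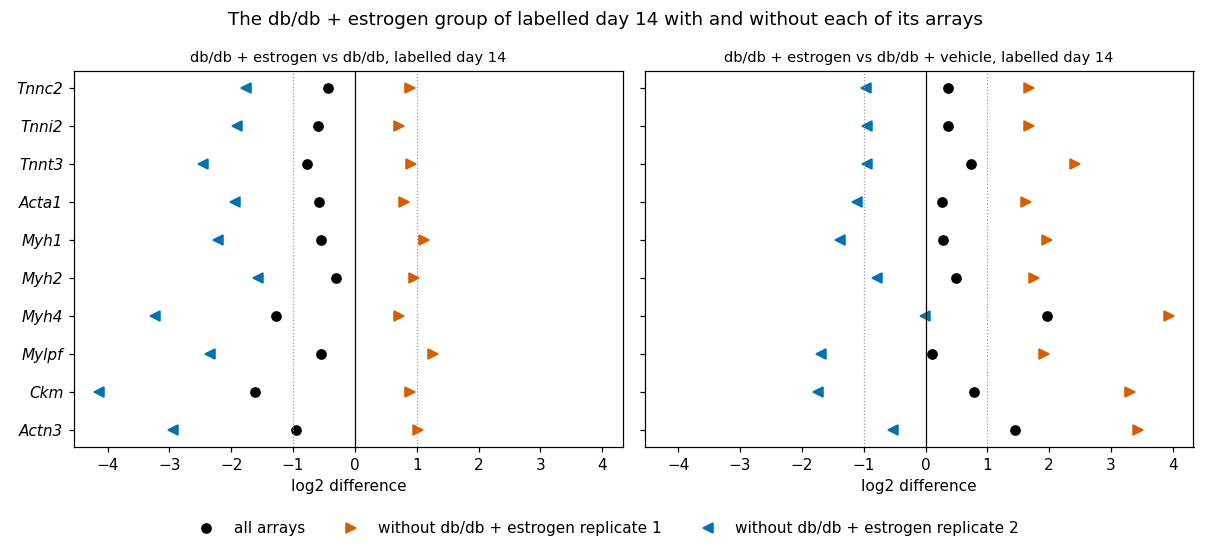
Log2 difference (horizontal axes) of the 10 fast fibre genes of estrogen treatment for labelled day 14, against db/db (left) and against db/db + vehicle (right), with all arrays and without either array of the estrogen-treated wounds. Against the db/db + vehicle group, all 10 genes lie above 0 without replicate 1 and below 0 without replicate 2.

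The change of each difference between the labelled days was tested in the same model. For db/db vs WT, 0 of 10 members were called, against 9.58% of the probes, with changes from -1.50 for Myh4 to 1.31 for Ckm. With slide as a fixed block, Ckm was called with a change of 4.09 and Myh1 with one of 3.03. This and the other calls of changes with the block depend on the slide term of labelled day 14 described above. For db/db + estrogen vs db/db, 0 of 10 were called, against 6.4% of the probes, and 9 members had a lower difference for labelled day 14, with a median change of -1.54. Acta1 had the lowest p there, with a change of -1.94 (95% interval -4.41 to 0.53, unadjusted p = 0.11, limma's adjusted p = 0.58). With slide as a fixed block 6 members were called, with changes from -4.21 for Ckm to -2.23 for Tnnc2. The median change was -3.06 without replicate 2 of the db/db + estrogen group of labelled day 14 and -0.078 without its replicate 1. For db/db + vehicle vs db/db, 0 of 10 were called, against 2.94% of the probes, with a median change of -1.02, and the block for slide called Ckm at -3.53. For db/db + estrogen vs db/db + vehicle, 0 of 10 were called, against 7.32% of the probes, and Myh4 had a change of 3.57 (interval -1.20 to 8.35, adjusted p = 0.56). Each labelled day had a scan day of its own. A scan effect shared by both groups cancels in such a change, and one that differed between the groups cannot be told apart from it.

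Most other genes of the contractile apparatus and of calcium and fuel handling followed the members. Of the 21 sarcomere and Z-disc genes listed, such as Ttn, Neb and Myl1, the lowest correlation with the mean of the members over the 16 arrays was 0.73 for Xirp1, and the median was 0.91. The median was 0.94 for the 12 genes of calcium release and uptake, such as Ryr1 and Atp2a1, with the lowest for Sln at 0.68. It was 0.91 for the 15 genes of fuel and ATP supply, with the lowest for Fbp2 at 0.57. The list of 15 also holds Actn2, a Z-disc protein that stands in the sarcomere list too. The summed linear level of the sarcomere list ran from 85.5 on replicate 1 to 820 on replicate 2 of the db/db + estrogen group of labelled day 14, the ends of the range for this list as well. The 12 slow fibre genes did so less, with a median correlation of 0.55 and the lowest for Tpm3 at -0.28. The value of Tpm3 depends on the probe, since the brightest of its 3 probes was nearly flat, between 5.52 and 6.37, while the other 2 ran from -3.65 to 2.44 and from -9.88 to 0.68, with correlations of 0.66 and 0.52. In the list of myogenic and regenerating fibre genes, Myh8, the perinatal myosin, had a correlation of 0.96, the median was 0.57, and Myf5 was well above background on no array.

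In the comparison of db/db + vehicle with db/db for labelled day 14, some of these genes were called although no member was, where 7.67% of all probes were called. The median difference was -1.38 for the sarcomere, -1.64 for the calcium and -1.70 for the fuel list, against 0.061 over all probes. Of the 21 sarcomere genes, 1 fell, Neb, the ruler of the thin filament, with a log2 difference of -2.24. Of the 12 calcium genes, 3 fell, namely Ryr1, the calcium release channel, at -2.61, Sln, which restrains the calcium pump, at -2.19, and Cacng1, a subunit of the voltage-sensing channel, at -1.55. Of the 15 fuel genes, 1 fell, Pfkm, the muscle phosphofructokinase, at -2.38. The shares of the sarcomere and fuel lists called were no higher than that of all probes. Of the 14 myogenic genes tested, 4 fell. They were Myod1 at -1.47 and Myog at -1.20, both myogenic transcription factors, Chrna1, a subunit of the acetylcholine receptor, at -1.78, and Ankrd1 at -1.15. Of the 12 slow fibre genes, 5 fell, namely Myh7 at -9.46, Myl2 at -8.43, Myl3 at -7.54, Myh7b at -7.00 and Atp2a2 at -2.14. No gene of these lists was called higher there, and none had an adjusted p below 0.05, the lowest being 0.13 for Myog.

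For db/db vs WT of labelled day 7, 14.2% of all probes were called. Lower on the log2 scale were 1 of 21 sarcomere genes (Xirp2, by 1.61) and 1 of 12 calcium genes (Cacng1, by 1.48). So were 1 of 12 slow fibre genes (Csrp3, by 1.81) and 2 of 14 myogenic genes. These shares were near or below that of all probes. The myogenic genes were Myh3, the embryonic myosin, lower by 1.97, and Myog, lower by 1.21 with limma's adjusted p = 0.049. For labelled day 14, 5 of the 12 slow fibre genes were higher in db/db than in WT wounds, namely Myh7, the slow myosin, at 9.40, Myl2 at 8.83, Myl3 at 6.78, Myh7b at 6.68 and Tnnc1 at 3.23, against 18.1% of all probes called. Between estrogen-treated and untreated db/db wounds of labelled day 7, Myh7 fell by 7.66, against 10% of the probes called. For the oil alone on that label, 3 of 14 myogenic genes fell, Myod1 at -1.05, Myog at -1.34 (limma's adjusted p = 0.14) and Ankrd1 at -1.21, against 4.92% of the probes. Between estrogen and oil on that label, 1 of 21 sarcomere genes rose, Pdlim3, a Z-disc protein, by 1.49. Of 14 myogenic genes, 1 rose, Ankrd1, by 1.45. Both shares were below the 9.08% of all probes. The change of the difference between estrogen and oil from labelled day 7 to 14 was called for 1 of 12 slow fibre genes, Myh7, at 10.02. That share was near the 7.32% of all probes. Myh7 stood at 5.09 and -3.69 on the db/db + vehicle arrays of labelled day 7. On the db/db + estrogen arrays of labelled day 14 it stood at -4.37 and 5.84, so the change rests on single arrays in these groups. No gene of these lists was called for db/db + estrogen vs db/db or vs db/db + vehicle of labelled day 14, nor for the other 3 changes, and Myog of db/db vs WT of labelled day 7 was the only call with an adjusted p below 0.05.

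The 10 named genes outside the member list whose probes were most like the mean of the members were St3gal6, Cox6a2, Hrc, Jsrp1, Atp6v0e2, Synm, Mypn, Phkg1, Cacna1s and Trim54. Their correlations over the 16 arrays ran from 0.974 to 0.987, and 197 of the 22100 probes compared had a correlation above 0.9. St3gal6, a sialyltransferase, stood first, and Cox6a2, the muscle form of a cytochrome c oxidase subunit, second. For 9 of the 10, the lowest level was on replicate 1 of the db/db + estrogen group of labelled day 14, and for Mypn on replicate 2 of the db/db + vehicle group of labelled day 7. All 10 had their highest level on replicate 2 of the db/db + estrogen group of labelled day 14. For Myh4 alone, no probe outside the members had a correlation above 0.9, and the nearest was Myl10 at 0.898, which was well above background on 8 arrays.

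Markers of other tissues were measured beside the members. The summed level of the 5 epidermal genes on the array moved against the members, with a correlation of -0.66 with their mean over the 16 arrays. In the db/db + estrogen group of labelled day 14 it was 636 on replicate 1, where the members were lowest, and 300 on replicate 2, where they were highest. It was 503 and 727 in the db/db + vehicle group and 258 and 440 in the db/db group of labelled day 7, and 627 and 360 in the WT group of labelled day 14. In all 8 groups, the array with the lower epidermal sum was the one with the higher mean of the members. The summed levels of the heart and smooth muscle lists had correlations of 0.36 and 0.44 with the members, and those of the fibroblast, adipocyte, endothelial, macrophage, neutrophil, nerve and hair follicle lists lay between -0.24 and 0.38. The correlation of the members with the log2 75th percentile of the array was -0.23. The part of the amount of epidermis or of muscle in each piece of tissue in these results was not tested.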

How the data were processed

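Skin wounds were profiled on 16 one-colour mouse arrays in 8 groups of 2, grouped by treatment and labelled day as in the sample labels. The authors deposited scanner files with an intensity for each spot (Feature Extraction 11.0.1.1), background-subtracted and not scaled between arrays. The deposited series matrix holds a ratio of this intensity to the 75th percentile of the array for 34643 probes, found by comparing the files. Control and outlier spots were left out, the spots of a probe were averaged, and log2 of the signal minus the log2 75th percentile was taken. A RefSeq table named 27427 of 39429 probes.

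limma 3.58.1 in R 4.3.3 was fitted with 1 coefficient for each group and 8 residual degrees of freedom, after tests on simulated data. A probe was tested where both arrays of 1 of the groups compared, or more, were well above background, with the thresholds of the study's methods (unadjusted p below 0.05, fold change above 2) and Benjamini-Hochberg adjusted values beside them. The arrays' number limits the precision. The p-values and intervals set each difference against the spread between arrays of the same group, pooled over the groups. Whether those arrays come from different mice is not known, so this spread may not be the one between mice. A gene was read through its brightest probe on average. The text names the 10 members, the 10 genes most correlated with their mean among probes well above background on at least 8 arrays, and genes called from the lists. The members and lists were chosen with earlier results of these data known. Promoters came from RefSeq on GRCm38.p6, and no other coordinates are printed.

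Same-numbered arrays did not deviate together (correlations between groups from -0.454 to 0.389), so the numbers were not taken to pair samples, although for labelled day 7 the number is also the slide. Of 15 printed fold changes of db/db vs WT, 0 were met within 1% on arrays of the same label and 15 on arrays of the other. The alternatives were normexp background correction (offset 50), quantile normalization, other filters on dim probes, a floor, the series matrix, fits of only the arrays compared, slide or replicate block, adjusted p, any probe of a gene, and leaving out each array.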

Additional observations from a re-analysis of the deposited data

How the results depend on the processing

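The count of members called was 0 in all 12 comparisons and remained 0 in all of them with no filter on dim probes, with a filter asking for every array compared, with a floor on dim signals, with the series matrix, with Benjamini-Hochberg adjusted p and with any probe of a gene. Normexp background correction called 1 member (Myh4) for db/db + estrogen vs db/db for labelled day 7 and 2 (Myh4 and Actn3) for db/db + vehicle vs db/db for labelled day 14, and quantile normalization called 1 (Myh4) in the latter. Fits of only the 4 arrays compared called 3 members for db/db vs WT for labelled day 7, 3 for db/db + estrogen vs db/db for labelled day 7, 4 for db/db + vehicle vs db/db for labelled day 14 and 1 for db/db + estrogen vs db/db + vehicle for labelled day 7. Slide as a fixed block called 1 for db/db vs WT for labelled day 14, 1 and 1 for db/db + estrogen vs db/db for labelled days 7 and 14, 7 for db/db + vehicle vs db/db for labelled day 14, and, for the changes between labelled days, 2 for db/db vs WT, 6 for db/db + estrogen vs db/db and 1 for db/db + vehicle vs db/db. The replicate block called 1 (Myh4) for db/db + estrogen vs db/db for labelled day 7 and 1 (Myh4) for db/db + vehicle vs db/db for labelled day 14 and changed no other call, although the numbers were not taken to pair samples. For these settings, and for the fits that leave out an array, the share of all probes called is not given. Their counts are therefore not read as results about the members.

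Leaving out each array in turn gave 0 to 8 members for db/db + estrogen vs db/db and 0 to 10 for db/db + estrogen vs db/db + vehicle for labelled day 14. It gave 0 to 1 for db/db + vehicle vs db/db and for db/db + estrogen vs db/db + vehicle for labelled day 7, and 0 in the other 4 comparisons of groups. For the changes between labelled days it gave 0 to 7 for db/db + estrogen vs db/db, 0 to 1 for db/db + vehicle vs db/db, 0 to 6 for db/db + estrogen vs db/db + vehicle and 0 for db/db vs WT. The calls of labelled day 7 were Myh4 and Acta1: without replicate 1 of the db/db + vehicle group, Myh4 differed by -4.03 from the db/db group and Acta1 by 2.18 between estrogen and vehicle, and without replicate 2 Myh4 differed by -4.04 between estrogen and vehicle. Of the 80 log2 differences of single members, the series matrix turned none. For db/db vs WT for labelled day 14, quantile normalization turned Tnnc2 to 0.016, Tnni2 to 0.24, Acta1 to 0.08 and Mylpf to 0.077, and normexp turned Mylpf to 0.035. The cause of these differences was not tested. With 2 arrays per group and a replicate SD of 0.84 to 1.70, the 95% intervals of the members are several log2 units wide.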
